A study of Mus musculus with 6 samples.

Results

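Mouse multipotent adult progenitor cells (MAPC) were compared with neurospheres (NS) on 4 of the study's 6 arrays, namely the 2 labelled mMAPC-1 and the 2 labelled NS. MAPC were grown from bone marrow in 2% fetal calf serum with EGF and PDGF-BB (10 ng/mL), LIF (1000 units/mL) and 5% oxygen. CD45+ and Ter119+ cells were removed after 4 weeks, the remaining cells were replated at 10 per well, and RNA was taken past 80 population doublings, with replating every 2 days. Both MAPC arrays carried RNA of the same clone (clone 2, labelled high Oct4), so their spread describes 1 line. Neurospheres are floating aggregates of neural stem and progenitor cells. They were grown here from neuroepithelial cells of the telencephalon of C57BL/6 embryos at E11.5, in N2-plus medium with bFGF and EGF (20 ng/mL); their serum and oxygen are not given in the sources used here. The other 2 arrays held C57BL/6 embryonic stem cells (ESC) in 15% serum with LIF on feeder cells, and enter this comparison only through the shared estimate of the spread. The study's design text calls the 2 samples of each group biological replicates. Cell type, culture medium and growth factors differed between MAPC and neurospheres, so their parts in a difference cannot be told apart.

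Telencephalic progenitors are radial cells of the embryonic forebrain that divide, hold the transcription factors Sox2 and Pax6, and use Notch signalling through Hes factors to stay undifferentiated. MAPC are adherent cells selected by long culture of marrow. Primitive endoderm, the epithelium that lines the blastocyst's cavity and lays down a laminin and type IV collagen membrane, is the embryonic lineage whose transcription factors Sox17, Sox7 and Foxa2 and whose keratins Krt8 and Krt18 come up below.

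Shown first are 6 marker genes given with the comparison. Their 60-base array probes appear by their first 30 bases, because every value below is a brightness of such a probe. The second probes of Krt18 and Fabp5 are shown beside the first, since 2 separate stretches of 1 transcript give the same comparison again.
Krt8: ccgacgagatcaacttcctccggcagatcc
Krt18, brighter probe: ggatggcagagtggtgtccgagactaatga
Krt18, dimmer probe: agaagaaccgcgaggaactggacaagtact
Ccn2: aactccaaacaccataggtaggacacgaag
Fabp5, brighter probe: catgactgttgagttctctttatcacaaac
Fabp5, dimmer probe: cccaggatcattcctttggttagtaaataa
Nes: gtcagaggggtctgagtctgcatccttgga
Ptprz1: agtcaatgcaaaactaaccctgggaatgta

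On each array the sample was labelled with Cy3 and a reference, a pool of RNA from 11 mouse cell lines, with Cy5. The log2 ratio of sample over reference is the value given per array, and the difference is the MAPC mean minus the NS mean of these ratios, with its standard error (SE) from limma and a p-value adjusted over all probes tested. Replicate arrays of MAPC correlated at 0.972 across probes and those of neurospheres at 0.974, against 0.445 to 0.457 between the groups. A root mean square difference in log2 ratio of 0.235 between the MAPC arrays and 0.205 between the NS arrays compares with 0.960 to 1.00 between the groups. Of the spots on the 4 arrays, 91.9% to 99.6% were marked well above background in the sample channel. Only 2 arrays a group limit the precision.

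All 6 markers differed between the groups. They were given with the comparison and not chosen independently of these data, so this is no check of the labels. Krt8, a keratin of simple epithelia, gave log2 ratios of 3.53 and 3.49 in MAPC and -2.67 and -3.07 in neurospheres, a difference of 6.38 ± 0.17 (adjusted p = 1.11e-05). Its partner Krt18 gave -0.01 and -0.41 in MAPC and -6.15 and -6.27 in neurospheres, with differences of 6.00 and 5.33 at its 2 probes. Both keratins were higher on both MAPC arrays than on either NS array. The groups likewise did not overlap, in either direction, in 79.8% of all named genes. Nes, the intermediate filament protein nestin of neural progenitors, gave 0.10 and -0.10 in MAPC and 3.24 and 3.31 in neurospheres, a difference of -3.28 ± 0.10 (adjusted p = 1.36e-05). Ptprz1, a receptor phosphatase of radial glia, gave -0.48 and -0.38 in MAPC and 6.08 and 5.37 in neurospheres (difference -6.15 ± 0.32, adjusted p = 6.51e-05). Pou5f1, the gene of Oct4 for which the MAPC clone is labelled high, gave 1.30 and 1.78 in MAPC and -0.41 and -0.44 in neurospheres; both its probes were higher in MAPC, by 1.97 ± 0.23 (adjusted p = 0.00129) and by 1.03.

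Across the array, 38938 of 41006 probes were tested and 16492 (42.4%) differed between MAPC and neurospheres. Of these, 8435 were higher in MAPC (21.7% of probes tested) and 8057 lower (20.7%). A difference of at least 2-fold was found for 2346 higher probes (6.02%) and 3495 lower ones (8.98%). Named genes numbered 12014 and were each given by their brightest probe; 3335 were higher in MAPC (27.8%) and 2924 lower (24.3%), and in 79.8% of them the arrays of the groups did not overlap. A count over a gene group is to be read against these shares. Bright in both channels means a mean log2 signal over the 4 arrays above the 75th percentile of all probes, in the sample and in the reference. A gene can thus pass in the sample channel through the group where it is high. The sample cut was 3137, while Ccn2 read 286 and 324 in neurospheres and Egr1 459 and 430 in MAPC. Among the 3987 genes bright in both channels, 2549 were called, 1381 higher and 1168 lower. That is 63.9%, against 46.2% of the 8027 other genes; the median SE was 0.0759 for bright genes and 0.0975 for the others.

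**Figure D1:**
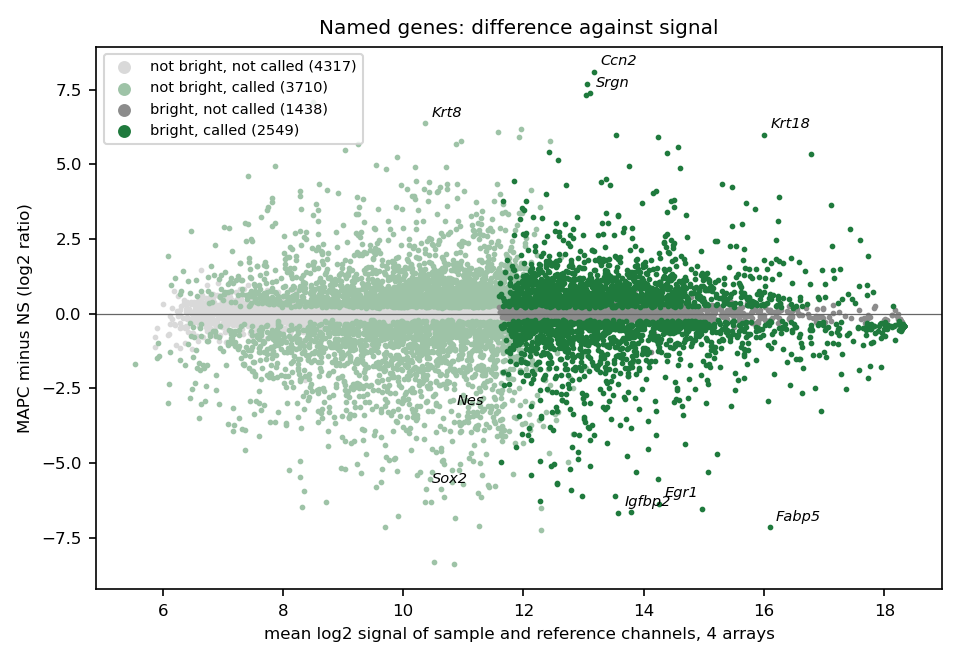
Difference in log2 ratio between MAPC and NS (vertical axis) against the mean log2 signal of both channels over the 4 arrays (horizontal axis), with 1 point per named gene and the bright genes and those called marked by colour. Points spread to both sides of 0, and the 24 leading bright genes lie beyond 5 log2 units above or below it, Ccn2 highest (8.11) and Fabp5 lowest (-7.14) among bright genes.

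Among bright genes, Ccn2 differed most. Ccn2 encodes a secreted matrix-associated protein of the CCN family that responds to mechanical tension; its log2 ratios were 3.48 and 3.41 in MAPC and -4.38 and -4.94 in neurospheres, a difference of 8.11 ± 0.23 (276-fold, adjusted p = 1.24e-05; 9.09 in the sample channel alone). Srgn, serglycin, a secretory granule proteoglycan, gave 2.93 and 2.94 in MAPC and -4.23 and -4.67 in neurospheres (7.39 ± 0.15, adjusted p = 6.63e-06; 9.53 in the sample channel). Glipr1 gave 2.47 and 2.41 against -4.78 and -4.97, and its 2 probes differed by 7.31 and 7.09. All 3 genes were above the reference pool in MAPC and below it in neurospheres on every array. Tfpi, the inhibitor of the tissue factor pathway of coagulation, gave 3.88 and 3.82 in MAPC and -2.13 and -2.15 in neurospheres, with differences of 5.99 and 5.77 at its 2 probes. F3, tissue factor itself, gave 4.46 and 4.24 against -1.05 and -0.98 (5.37 ± 0.19). Procr, the endothelial protein C receptor, gave 1.97 and 1.60 against -3.54 and -3.70 (5.40 ± 0.14). Higher in MAPC by a like margin were Rhox5, a homeobox gene of the X chromosome (5.91), Dusp9, a phosphatase of MAP kinases (5.58; 7.27 in the sample channel), Lhfpl1 (5.34) and Gcnt1, a glycosyltransferase that branches O-glycans (5.14). Rpl39l, a close copy of the ribosomal gene Rpl39, was higher by 7.71. Its sample signals were 55683 and 51236 in MAPC and 254 and 144 in neurospheres. Whether its probe also binds the Rpl39 transcript was not tested.

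Fabp5, a fatty acid binding protein of neural progenitors and skin, stood lowest in MAPC among bright genes. It gave -5.54 and -5.63 in MAPC and 1.65 and 1.47 in neurospheres, a difference of -7.14 ± 0.11 (adjusted p = 4.78e-06), and its second probe gave -7.63. The first probe was saturated on 1 of the 2 neurosphere arrays, so no fold is given for it. Igfbp2, which binds insulin-like growth factors, gave -3.06 and -3.04 in MAPC and 3.66 and 3.57 in neurospheres (-6.67 ± 0.07; -9.06 in the sample channel). Npdc1, a gene of neural cells linked to the control of proliferation, gave -6.08 and -5.96 against 0.61 and 0.66 (-6.65 ± 0.07). In these 3 genes both neurosphere arrays lay above the reference pool and both MAPC arrays far below it. Transcription factors were among the lower genes: the immediate early gene Egr1 gave -7.87 and -7.68 in MAPC and -1.44 and -1.38 in neurospheres (-6.36 ± 0.09), and the ETS factor Etv1 gave -4.35 and -3.79 against 2.26 and 2.17 (-6.29 ± 0.19). Id3, an inhibitor of helix-loop-helix factors, was lower by a difference of -5.56. The rest were Cpe, a carboxypeptidase that trims prohormones (-6.12), Lrig1, which restrains EGF receptor signalling (-6.10 and -5.76 at 2 probes), Tmem131l (-5.92), the vasoactive peptide gene Adm (-5.71) and Itm2a (-5.66). Ptprs, a receptor phosphatase of neurons, had 1 usable MAPC array at its brighter probe (-6.56), and its other probe gave -0.33. All 24 leading genes kept their call in each alternative processing that gave them a value, with adjusted p at most 0.00372.

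**Figure D2:**
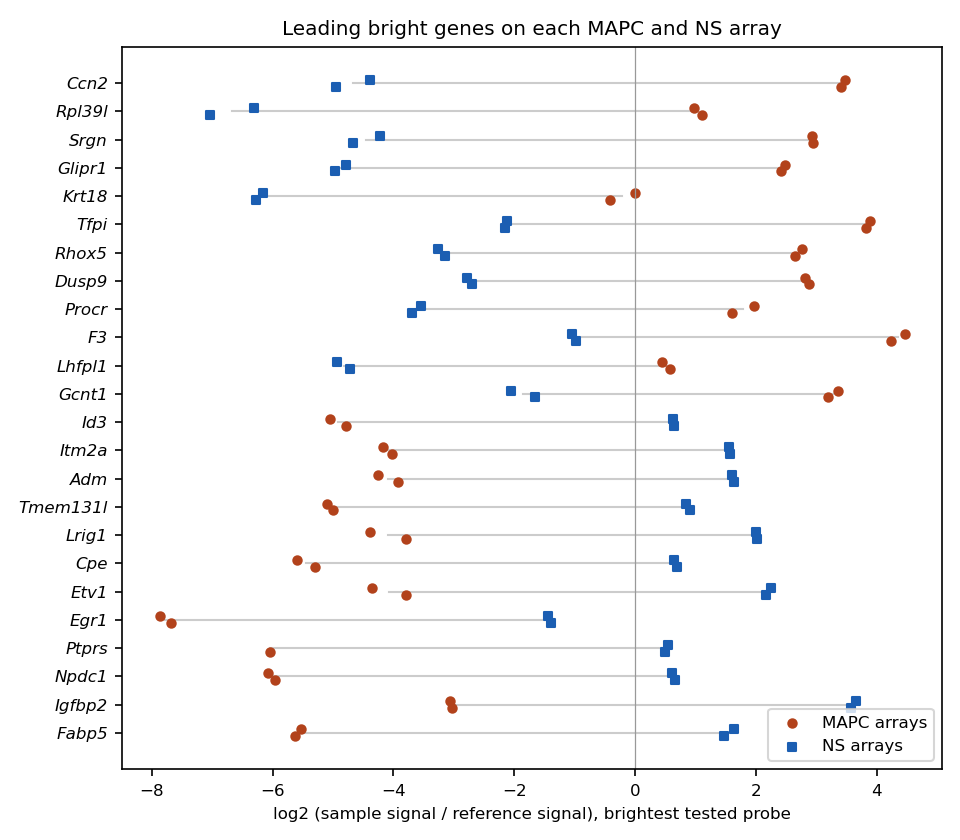
Log2 ratio of sample over reference (horizontal axis) for the 12 bright genes highest and the 12 lowest in MAPC relative to NS, 1 row per gene, with a point for each MAPC and NS array. The 2 arrays of a group lie close together in each row and the means of the groups lie over 5 log2 units apart; Ptprs has a single MAPC point.

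The reference is the same pool on every array, yet its signal was not the same on the MAPC and NS arrays at every probe. Relative to the median of all probes, 563 of the 38938 probes (1.45%) differed at least 2-fold in the reference channel, and 556 of these differed in the same direction as the sample channel of the same spot. Where the sample was over 64-fold brighter in MAPC (a log2 difference above 6, 54 probes), the median reference difference was 1.34, and all 54 went that way; where it was that much dimmer (90 probes), the median was -0.85, and 86 went that way. Among the 31904 probes within 1 log2 unit in the sample channel it was -0.00362. The cause was not tested. At such probes the ratio tends to give a smaller difference than the sample channel, and which is nearer the RNA amount was not tested. The sample channel alone, or a bound from it, is therefore given beside some ratios. These are the genes described whose reference differed by 2-fold or more at the brightest probe. Of the 16492 called probes, 10089 (61.2%) were also called in the sample channel alone with the same sign and 27 with the opposite one. The median difference over all probes was 0.07 by ratio and -0.04 in the sample channel.

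Sox2, a transcription factor of neural stem cells, shows this. Its reference signal was 119 and 166 on the MAPC arrays and 1757 and 2011 on the NS arrays, while its sample signal was 101 and 148 in MAPC and 90631 and 102132 in neurospheres. The difference was -5.88 ± 0.07 by ratio and -9.78 in the sample channel alone. Fabp7, the brain fatty acid binding protein of radial glia, had sample signals of 681 and 683 in MAPC and 453787 and 399136 in neurospheres, where both spots were saturated. It was at least 681-fold lower in MAPC in the sample channel, against a ratio difference of -4.05 (adjusted p = 1.81e-05). Bcan, the brain proteoglycan brevican, differed by -4.90 by ratio and -10.33 in the sample channel. Srgn went the other way, with 7.39 by ratio and 9.53 in the sample channel. In these 4 genes both scales had the same sign.

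**Figure D3:**
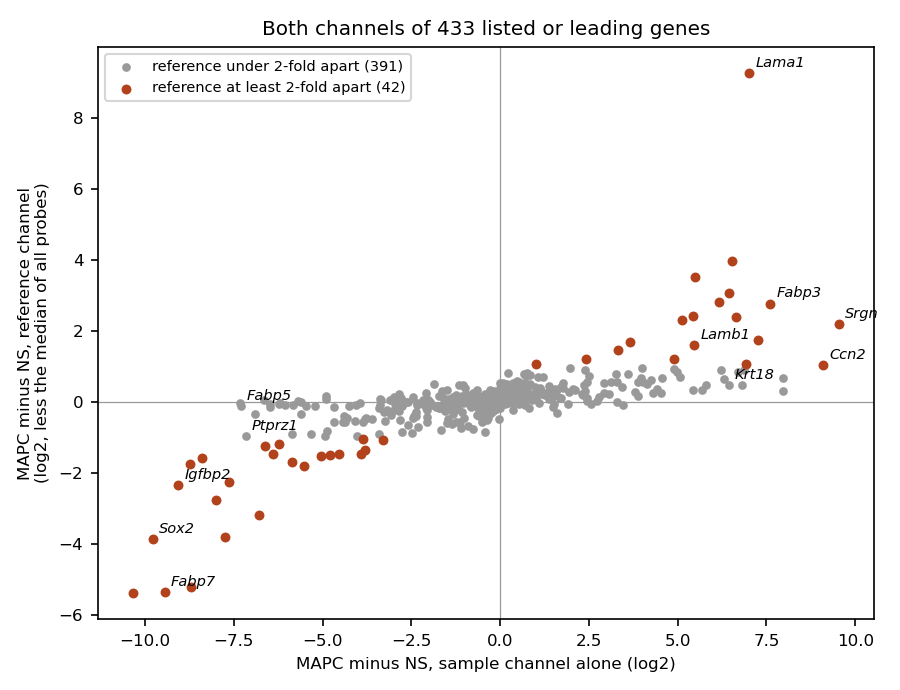
Difference between MAPC and NS arrays in the reference channel (vertical axis, log2) against that in the sample channel (horizontal axis, log2) for the 433 genes of the lists and of the named sets, with the 42 that were at least 2-fold apart in the reference coloured and some genes named. Points far to the left tend to lie below 0 and points far to the right above it, and Lama1 lies highest.

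Lama1, the laminin α1 chain of the earliest basement membranes, was 1 of 10 listed genes whose sign differed between the scales, and the one with the widest gap in the reference. Its 2 probes are shown because they disagreed by ratio.
Lama1, brighter probe: atgttgaactaaagccacacggacaacaga
Lama1, dimmer probe: gatatgcagctcttgtcaaggaaggttaca
The brighter probe read 479586 in the sample channel of the first MAPC array and 3214 and 3210 on the NS arrays, and its MAPC spots were saturated. Its reference read 217689 on that MAPC array and 333 and 325 on the NS arrays, so that its ratio difference was -2.15 ± 0.09 (adjusted p = 0.000112). In the sample channel alone the same probe was higher in MAPC, by 7.02, which with saturation is at least 113-fold. The dimmer probe read 235059 on the second MAPC array and 514 and 436 on the NS arrays, and was higher in MAPC by ratio (2.75) and in the sample channel (8.84). Each probe had 1 usable MAPC array. Both Lama1 probes were thus higher in MAPC in the sample channel, and they opposed each other only after division by the reference.

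Genes with several probes gave a second check. Of 2647 genes with 2 or more tested probes, 855 had every probe called in 1 direction, 524 higher and 331 lower in MAPC. A further 861 had some probes called and all of those 1 way, 849 had none called, and 82 had probes called in both directions. Every probe agreed in 41.9% of the genes bright by their brightest probe and in 23.4% of the others. Probes called in both directions were also more frequent in the bright genes, 3.70% against 2.54%. Full agreement needs every probe to be called, and 63.9% of all bright genes were called against 46.2% of other genes. For the 411 genes whose 2 probes were both bright, the median gap between the probes' differences was 0.155, against 0.305 for 2037 genes where at least 1 was not. Probes that overlap in sequence are no separate evidence: 200 of the genes held such a pair, and their share with full agreement was 44.5%, against 31.3% without. By the sample channel alone 35 genes had probes in opposite directions, 27 of which were among the 82.

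Dppa5a, a gene of early embryonic and germ cells, gave 3.57, 3.84, 3.80 and 4.26 at its 4 probes, all higher in MAPC. Xlr4b, of an X-linked lymphocyte-regulated gene family with near-identical copies, gave 4.10, 5.76 and 4.56. Lower in MAPC at each of 3 probes were G0s2, an inhibitor of fat breakdown (-2.04, -6.01 and -4.99), and the folate enzyme gene Ggh (-2.05, -2.10 and -2.01). The G0s2 probes agreed in direction and not in size. Fdps, an enzyme of the cholesterol pathway, gave -2.57, -2.25 and -1.93. Among genes whose probes opposed each other, Nfia, a transcription factor of glial development, gave -5.00 (-6.23 in the sample channel) and 0.60, Tango6 gave 1.10 and -3.64, and the galectin gene Lgals7 gave -3.84 and 0.43. Sox21, a Sox family gene of neural cells, opposed itself in the sample channel as well, and its probes are shown for that reason.
Sox21, brighter probe: gcccaagacgctgctcaaaaaggacaagtt
Sox21, dimmer probe: tgtctttagctttttagagtagggtggctc
The brighter Sox21 probe gave log2 ratios of 0.93 and 1.05 in MAPC and -1.84 and -1.92 in neurospheres (2.87 ± 0.13, adjusted p = 3.88e-05). The dimmer probe gave 1.60 and 1.22 in MAPC and 2.92 and 3.00 in neurospheres (-1.55 ± 0.15, adjusted p = 0.000637). In the sample channel alone the probes gave 3.60 and -2.14, so no direction is given for Sox21.

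**Figure D4:**
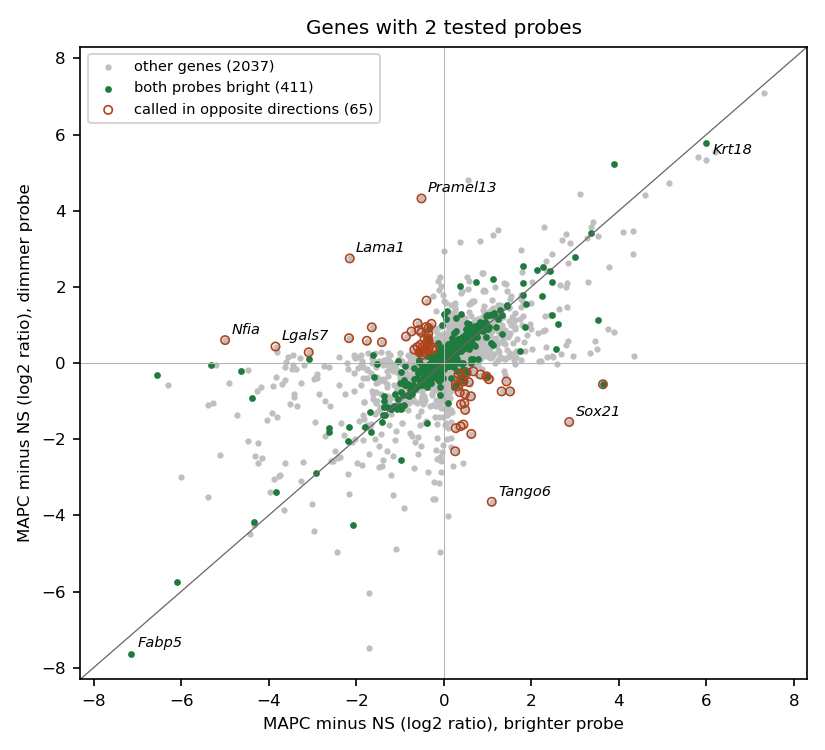
Difference between MAPC and NS at a gene's brighter probe (horizontal axis, log2) and at its dimmer probe (vertical axis, log2) for genes with 2 tested probes, with genes whose probes were both bright and those called in opposite directions coloured. Most points lie along the diagonal or near 0, and 65 genes were called in opposite directions.

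Neural progenitor genes were lower in MAPC. The 34 tested had a median difference of -3.04, against 0.07 over all probes (-1.78 when loess was run on signals without background subtraction, called loess on unsubtracted signals from here on); 26 passed the test as lower and 1, Sox21 by its brighter probe, as higher. Lhx2 and Emx2, which pattern the cortex, differed by -4.91 and -4.07, and Pax6 gave -1.04 and -0.87 in MAPC against 1.95 and 1.93 in neurospheres (-2.90 ± 0.08). Groups did not overlap in any of these genes, which was also so in 79.8% of all named genes. By the test, 79.4% of the 34 were called, against 52.1% of all named genes. The orphan receptor gene Nr2f1, a bright gene, differed by -5.02, Zic1 by -4.88 (-6.40 in the sample channel), Sox9 by -3.91, Sox11 by -3.83 and Olig1 by -3.65 (-5.51 in the sample channel). Vim, vimentin, was saturated on both NS arrays and was at least 3.08-fold lower in MAPC (adjusted p = 0.000653). Genes of this list that did not pass the test included Sox1 (0.07), Msi1 (0.02) and Hes1 (-0.52, adjusted p = 0.0543). In a bulk sample fewer cells of a type and less RNA per cell cannot be told apart.

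Markers of cells that progenitors give rise to moved with them, and their part in the result was not tested. Among neuronal and among glial genes 93.75% were called, against 52.1% of all named genes. The 16 neuronal genes had a median of -1.16 (-0.38 with loess on unsubtracted signals and -0.49 over those well above background in both channels on all 4 arrays); 14 passed the test as lower and 1 as higher (2 without the first MAPC array). In the sample channel alone 8 were lower, and Tubb2b and Syt1 turned sign. Gap43, a growth cone protein, gave 0.85 and 0.81 in MAPC and 4.31 and 4.28 in neurospheres (-3.46 ± 0.07; -8.71 in the sample channel). Elavl3 differed by -3.48 (-5.05 in the sample channel), Stmn3 by -2.95 and Neurod1 by -2.31. The exception was Tubb3, the neuronal β-tubulin, which gave 3.74 and 3.92 in MAPC and 1.96 and 1.89 in neurospheres (1.90 ± 0.09, adjusted p = 5.37e-05; 3.31 in the sample channel). Glial genes, 16 of astrocytes and oligodendrocytes, had a median of -1.53 (-0.89 with normexp and loess, -0.61 with loess on unsubtracted signals), with 11 below neurospheres and 4 above. Aldh1l1, an astrocyte enzyme, gave -0.87 and -0.43 in MAPC and 4.69 and 4.65 in neurospheres (-5.32 ± 0.16; -6.62 in the sample channel), while Clu, clusterin, gave 3.52 and 3.69 against -0.77 and -0.65 (4.31 ± 0.09; 6.65 in the sample channel). The myelin gene Mbp was also higher in MAPC (1.29).

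Neural adhesion and axon guidance was measured by 23 genes with a median of -0.96 (-0.23 with loess on unsubtracted signals), of which 15 fell in MAPC and 3 rose. That is 78.3% called, against 52.1% of all named genes. The membrane glycoprotein Gpm6a gave -1.17 and -1.92 in MAPC and 5.27 and 5.20 in neurospheres (-6.78 ± 0.24, adjusted p = 2.02e-05; -8.40 in the sample channel). Cdh2, N-cadherin, gave -2.59 and -2.46 against 1.56 and 1.57 (-4.09 ± 0.11), and Cntn1, contactin, differed by -3.73. Mdk, the growth factor midkine, was higher in MAPC at both probes (1.36 and 0.78), and the guidance receptor Robo1 was higher by 0.80.

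Notch pathway genes were lower in MAPC or did not pass the test, and 63.2% were called, against 52.1% of all named genes. The 19 tested had a median of -0.69 (-1.04 in the sample channel, -0.44 with normexp and loess, -0.13 with loess on unsubtracted signals); 12 passed the test as lower and none as higher. Among receptors, Notch1 gave -1.62 and -1.75 in MAPC and 3.51 and 3.58 in neurospheres (-5.23 ± 0.12, adjusted p = 7.89e-06), while Notch2 (0.07) and Notch3 (-0.27) did not pass the test. Among ligands, Dll1 differed by -2.26 and Dll3 by -1.46. The target Hes5 gave -0.44 and -0.38 in MAPC, where 1 of its 2 spots was well above background, and 4.69 and 4.88 in neurospheres (-5.20 ± 0.31; -8.00 in the sample channel). Nrarp, another target, differed by -2.79 (-3.87 in the sample channel) and the fringe enzyme gene Mfng by -2.55, and Rbpj, the DNA-binding factor of the pathway, gave 0.08. Hey1, 1 of the 12, was lower by ratio (-0.40) and gave 0.08 in the sample channel alone.

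Primitive endoderm genes were higher in MAPC, and 82.6% of those tested were called, against 52.1% of all named genes. The 23 tested had a median of 2.76, and 17 passed the test as higher. The 2 that were lower by ratio, Lama1 and Ttr, had the opposite sign in the sample channel alone. In that channel 18 passed the test as higher and 1, Amn, as lower (-1.09). Among transcription factors, Sox17 gave 5.44 and 5.44 in MAPC and -0.50 and -0.44 in neurospheres (5.91 ± 0.06, 60.0-fold, adjusted p = 4.35e-06; 6.92 in the sample channel). Sox7 gave 5.24 and 5.28 against -0.40 and -0.45 (5.68 ± 0.08), and Foxa2 gave 4.13 and 3.95 against -0.40 and -0.35 (4.41 ± 0.09). In each of the 3, both neurosphere arrays lay just below the reference and both MAPC arrays far above it. The thrombin receptor gene Thbd differed by 4.17, the adaptor gene Dab2 by 3.34, and Pdgfra, a receptor for the PDGF of the MAPC medium, by 2.66. The endocytic receptor gene Lrp2 gave 5.28 and 5.21 against 2.30 and 2.44 (2.87 ± 0.11; 5.13 in the sample channel), and Pth1r differed by 2.61 (6.53 in the sample channel). Hnf4a (0.11), Amn (-0.30) and Plat (0.50) did not pass the test by ratio. Gata4 and Gata6, which head this lineage, had no probe named or tested here.

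Basement membrane and integrin genes did not move 1 way by ratio. Of the 16 tested 12 were called, against 52.1% of all named genes. By ratio 7 were up in MAPC and 5 down. Lama1 is counted among the 5, though its brighter probe was higher in the sample channel alone (7.02). That probe had a usable MAPC spot on the first MAPC array only. The median of the list was 0.12 by ratio. In the sample channel alone 9 were higher and 3 lower, and the median was 1.11. Without the first MAPC array the median was 0.64, with 8 up and 4 down, and with loess on unsubtracted signals it was 0.07. Nid2, the linker protein nidogen 2, gave 3.47 and 3.47 in MAPC and -0.53 and -0.56 in neurospheres (4.02 ± 0.07, adjusted p = 5.7e-06), and Nid1 differed by 2.76. Lamb1, the laminin β1 chain, was saturated on both MAPC arrays and was at least 38.1-fold higher (adjusted p = 5.36e-06). Col4a1, a type IV collagen chain, gave 2.93 and 3.07 against -0.39 and -0.41 (3.40 ± 0.08; 6.17 in the sample channel), and Lamc1 differed by 2.03 (5.49 in the sample channel). Each of these matrix chains was higher on both MAPC arrays. The arrays of the groups did not overlap, in either direction, in 79.8% of all named genes. Lower in MAPC were the syndecan Sdc2 (-3.93), Col18a1 (-3.34) and the dystroglycan gene Dag1 (-2.27). From the primitive endoderm list, Sparc, a calcium-binding glycoprotein that binds collagen IV, gave 2.02 and 2.05 in MAPC and -1.02 and -1.09 in neurospheres (3.09 ± 0.07).

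Genes of simple epithelium were in part higher, and the share called, 57.1%, was near the 52.1% of all named genes. The 21 tested had a median of 0.45 (0.68 in the sample channel, 0.23 with normexp and loess, 0.12 with loess on unsubtracted signals); 10 passed the test as higher, 2 as lower and 9 not at all. Beside the keratins, Krt19 differed by 2.12, the adhesion molecule gene Epcam by 3.78 and 2.51 at its 2 probes, and the junction genes F11r and Pkp2 by 2.67 and 1.38. Cdh1, E-cadherin, gave 0.22 and 0.04 in MAPC and -0.45 and -0.26 in neurospheres, a difference of 0.48 (adjusted p = 0.012, up to 0.11 over the alternatives). The claudins Cldn4 (0.45) and Cldn7 (0.38) and the epithelial regulators Esrp1 (-0.02) and Grhl2 (0.04) did not pass the test.

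Genes known as targets of YAP and SRF, factors that respond to adhesion and actin tension, were mostly higher in the adherent MAPC. In either direction 86.7% were called, against 52.1% of all named genes. The median of the 15 tested was 0.71 (1.22 in the sample channel); 10 passed the test as higher and 3 as lower. Beside Ccn2, Ccn1 gave 0.80 and 0.37 in MAPC and -3.71 and -3.78 in neurospheres (4.33 ± 0.22, and 2.87 at the second probe). Amotl2 gave 0.48 and 0.59 against -3.21 and -3.10 (3.69 ± 0.08), and the calponin gene Cnn2 gave 2.24 and 2.24 against -1.24 and -1.35 (3.53 ± 0.16). Ankrd1 differed by 2.88, Zyx by 1.23 and Srf itself by 1.18. Lower in MAPC were the receptor kinase gene Axl (-1.47), Tgfb2 (-1.23) and Tpm2 (-0.71, adjusted p up to 0.222 over the alternatives). Whether the known letters of the TEAD site GGAATG (reverse CATTCC), through which YAP acts, lie near the gene start was read from the 250 bases before each RefSeq start (GRCm38.p6). Of 19 genes of the list with such an entry, 9 (47.4%) held it on either strand, against 14.4% of 27025 genes; 5 of 7 tested genes with it and 4 of 6 without it were higher in MAPC. The windows of Ccn1 and Amotl2 are shown as those of list genes over 10-fold higher in MAPC that hold the letters, which stand in capitals.
Ccn1, chr3:145649986-145650235, minus strand: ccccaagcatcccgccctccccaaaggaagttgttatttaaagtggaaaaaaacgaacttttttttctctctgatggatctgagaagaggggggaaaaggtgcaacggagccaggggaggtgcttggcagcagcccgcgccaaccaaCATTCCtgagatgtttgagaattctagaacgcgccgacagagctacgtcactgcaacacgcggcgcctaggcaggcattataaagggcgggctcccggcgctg
Amotl2, chr9:102717554-102717803, plus strand: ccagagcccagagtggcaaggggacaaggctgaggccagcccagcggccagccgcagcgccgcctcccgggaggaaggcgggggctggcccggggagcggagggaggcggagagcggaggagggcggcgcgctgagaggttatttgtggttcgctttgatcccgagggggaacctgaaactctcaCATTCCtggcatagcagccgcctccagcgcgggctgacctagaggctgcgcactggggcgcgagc

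Annexins and S100 proteins, which bind calcium and membranes, were also higher in MAPC. In either direction 80.0% were called, against 52.1% of all named genes. The median of the 15 tested was 0.83 (0.52 with loess on unsubtracted signals); 11 rose and 1 fell. Without the second neurosphere array 7 were higher, and without either ESC array 2 were lower. Anxa7 gave 0.31 and 0.34 in MAPC and -2.78 and -2.66 in neurospheres (3.05 ± 0.08), and Anxa5 gave 0.60 and 0.52 against -2.14 and -2.17 (2.72 ± 0.10). Anxa2 differed by 1.34 and Anxa3 by 1.71, while S100a16 was lower (-2.03) and Anxa1 did not pass the test (0.21).

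The 21 pluripotency genes tested had a median of 0.90 (0.53 with normexp and loess, 0.49 with no filter on dim probes, 0.11 with loess on unsubtracted signals); 13 rose in MAPC and 3 fell. Zfp42 gave 4.66 and 4.33 in MAPC and 0.46 on the 1 neurosphere array with a usable spot (4.03 ± 0.20, adjusted p = 0.000179). Klf5 gave 3.28 and 3.42 against -0.52 and -0.63 (3.93 ± 0.08), and the DNA methyltransferase gene Dnmt3b gave 3.36 and 3.30 against 0.01 and -0.08 (3.36 ± 0.09). Dnmt3l, its partner without enzyme activity, differed by 3.41 (6.44 in the sample channel), Lin28a by 2.54, Klf4 by 2.14 and Sall4 by 1.61. In the same list Nr0b1 (-0.15), Fgf4 (0.05), Tdgf1 (0.13), Nodal (0.13) and Tcl1 (-0.03) did not pass the test. Lefty1, a Nodal inhibitor, was lower in MAPC (-1.61). Sox2 is counted with the neural progenitor genes above, not here. Of the pluripotency genes tested 76.2% were called, against 52.1% of all named genes. Eras, 1 of the 13, turned sign in the sample channel alone (0.49 by ratio, -0.42 in that channel).

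Genes of the response to growth factors moved both ways, with 70.6% called against 52.1% of all named genes. The 17 tested had a median of -0.37 (-0.61 without the first NS array, -0.22 by the authors' value table, -0.21 with normexp and loess, -0.15 with loess on unsubtracted signals), 9 falling and 3 rising in MAPC. Targets of FGF and ERK signalling were among the lower: Dusp6 gave -2.81 and -2.54 in MAPC and 1.86 and 1.74 in neurospheres (-4.47 ± 0.14, and -0.19 at its second probe), Etv5 differed by -3.27 (-0.52 at its second probe) and Spry1 by -2.67, while Spry2 (-0.03 by ratio, 1.00 in the sample channel) did not pass the test by ratio. Socs3, a target of the LIF and STAT3 pathway, gave 1.20 and 1.25 in MAPC and -2.42 and -2.52 in neurospheres (3.69 ± 0.10, adjusted p = 1.12e-05). The receptor gene Fgfr4 was higher in MAPC (1.35), Pdgfrb was lower (-1.02), and Kitl, the ligand of the receptor Kit, was lower at both probes (-3.00 and -3.70). LIF was added to the MAPC medium and bFGF to the neurosphere medium; their part in these differences was not tested.

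Markers of other cells that marrow holds were set beside these groups. Mature blood was represented by 16 genes with a median of 0.07 (0.18 without the first MAPC array); 2 passed the test as higher and 1 as lower, 18.8% of them against 52.1% of all named genes. Leaving out any MAPC or NS array left 1 higher, and the lower one was lost without the second NS array; without either ESC array 3 were higher and 2 lower. In the fit of all arrays the lower gene was Cd14 (-0.71), and the higher ones were Fcgr3 and Klf1. The macrophage and blood genes Lyz2 (-0.03), Laptm5 (0.04), Tyrobp (-0.13) and Itgam (0.17) did not pass the test. Cd68, Csf1r and Ptprc, the gene of CD45, were not tested. Of the 21 genes of blood stem and progenitor cells 52.4% were called, and of the endothelial genes below 6 of 12. Both shares lay near the 52.1% of all named genes. The blood stem and progenitor genes had a median of -0.02, of no fixed sign over the alternatives, with 6 up and 5 down. Those up included Procr, Tek (3.74; 4.89 in the sample channel), Kit (4.69 and 4.35 in MAPC, 2.10 and 2.02 in neurospheres, 2.46 ± 0.12, with -0.89 at another probe), Runx1 (2.01) and Etv6 (1.80). The count of lower ones fell to 2 without the first MAPC array, without either NS array, and with loess after normexp or on unsubtracted signals, and to 3 without either ESC array. Of 12 endothelial genes, 4 were higher (Tek, Flt1 by 2.36, Ramp2 by 1.95 and Egfl7 by 1.93) and 2 lower, the latter falling to 0 without the first NS array and to 1 without the second or without either MAPC array, while Pecam1 (0.11) and Cdh5 (0.09) did not pass the test.

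Mesenchymal and fibroblast genes were lower in MAPC than in neurospheres, and 81.25% were called, against 52.1% of all named genes. The 16 tested had a median of -0.84 (-0.39 with normexp and loess, -0.09 with loess on unsubtracted signals); 11 passed the test as lower (6 with loess on unsubtracted signals) and 2 as higher. Periostin, Postn, whose MAPC spots were both not well above background, came out at least 28.2-fold below neurospheres (adjusted p = 5.82e-05). The matrix gene Fbln2, fibulin 2, gave -3.24 and -3.51 in MAPC and 0.11 and -0.05 in neurospheres (-3.41 ± 0.13), and Dcn, decorin, gave -6.33 and -6.19 against -3.47 and -3.35 (-2.85 ± 0.22). The collagen genes Col1a1 (-0.38) and Col1a2 (-0.57), lower by the test but both losing the call under an alternative, lay below the reference in both groups. Higher in MAPC were Vcam1 (2.43) and Timp1 (2.18).

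Enzymes of cholesterol synthesis were lower in MAPC. The share called was 93.3%, and that of the fatty acid genes below 94.4%, against 52.1% of all named genes. The 15 tested had a median of -1.40; 13 passed the test as lower and 1 as higher. Dhcr7, which makes cholesterol in the last step of 1 branch, gave 0.49 and 0.34 in MAPC and 3.05 and 3.09 in neurospheres (-2.66 ± 0.09, adjusted p = 1.61e-05). Lower as well were Msmo1 (-1.99), Sqle (-1.87), Fdft1 (-1.62), Nsdhl (-1.55) and Insig1 (-1.40), the sterol-regulated retention factor of the pathway's activator. The exception, Ebp, was higher by ratio (0.50) and gave -0.03 in the sample channel alone. Among 18 genes of fatty acid metabolism and binding, 12 fell and 5 rose, and the median was -0.95; 3 were higher without the first MAPC array or the second NS array. The binding proteins split: Fabp5 and Fabp7 were lower, whereas Fabp3, the heart form, was saturated on both MAPC arrays and at least 170.5-fold higher in the sample channel (ratio difference 4.88, adjusted p = 7.69e-06). The desaturase genes Scd1 and Scd2 differed by -1.98 and -1.53, Fads1 by -2.07, and Cpt1a, which admits fatty acids to mitochondria, by -2.60.

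Hypoxia and glycolysis genes were lower in MAPC, the cells labelled as grown in 5% oxygen. In either direction 84.6% were called, against 52.1% of all named genes. The 26 tested had a median of -1.11; 18 passed the test as lower and 4 as higher, and 20 of the 26 were bright in both channels. Ddit4, an inhibitor of mTOR signalling that rises in hypoxia, gave -3.68 and -3.76 in MAPC and 1.59 and 1.59 in neurospheres (-5.31 ± 0.27, adjusted p = 6.26e-05). Pdk1, which keeps pyruvate from mitochondria, differed by -5.11 with 1 usable NS array, and Egln3, an oxygen-sensing hydroxylase, gave -2.98 and -2.73 against 0.24 and 0.26 (-3.11 ± 0.22). The groups did not overlap in these genes, which was also so in 79.8% of all named genes. Among glycolytic enzymes Pfkp differed by -3.25, Pgk1 by -1.90, Ldha by -1.40 and Tpi1 by -1.19, whereas Hk2 was higher (0.76) and Pfkl did not pass the test (-0.03). The collagen prolyl hydroxylases P4ha1 (1.10) and P4ha2 (2.60) and the glucose transporter gene Slc2a3 (1.06) were higher in MAPC, and Slc2a1 (-0.24) and Car9 (0.01) did not pass the test. The core letters of the hypoxia response element, ACGTG (reverse CACGT), lay in the 250 bases before the start of 17 of 27 list genes with an entry (63.0%), against 18.5% of 27025 genes. Of the tested genes, 10 of 15 with these letters and 7 of 9 without them were lower in MAPC. The windows of Ddit4 and Egln3 are shown because these 2 genes are described in full above; other list genes, among them Ldha, Pgk1 and P4ha2, hold the letters too. The letters stand in capitals.
Ddit4, chr10:59951771-59952020, minus strand: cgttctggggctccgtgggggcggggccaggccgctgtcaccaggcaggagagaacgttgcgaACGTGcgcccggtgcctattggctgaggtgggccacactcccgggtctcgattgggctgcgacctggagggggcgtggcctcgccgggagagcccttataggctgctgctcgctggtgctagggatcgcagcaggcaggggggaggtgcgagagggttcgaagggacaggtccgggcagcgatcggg
Egln3, chr12:54203875-54204124, minus strand: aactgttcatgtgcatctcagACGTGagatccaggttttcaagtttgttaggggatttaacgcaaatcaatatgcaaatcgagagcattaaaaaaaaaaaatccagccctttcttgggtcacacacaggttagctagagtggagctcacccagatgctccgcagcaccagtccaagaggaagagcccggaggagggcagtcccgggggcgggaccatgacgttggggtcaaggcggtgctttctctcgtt

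Cell cycle genes moved both ways, with 72.4% called against 52.1% of all named genes. The 29 tested had a median of 0.01, of no fixed sign over the alternatives; 8 rose in MAPC and 13 fell. Among genes of mitosis and replication, Ccna2 (0.01), Ccnb2 (0.05) and Plk1 (-0.01) did not pass the test, Mcm2 and Mcm5, which license replication, were higher by 1.17 and 1.33, and the checkpoint gene Bub1 (-0.37) and the replication clamp gene Pcna (-0.27) were lower, both losing the call under an alternative. Among regulators of the passage from G1, the cyclin D gene Ccnd1 gave -2.23 and -1.93 in MAPC and 2.29 and 2.32 in neurospheres (-4.38 ± 0.12, and -0.91 at its second probe), and Ccnd3 was higher by 1.26 (2.42 in the sample channel). The retinoblastoma gene Rb1 gave -2.08 and -2.09 against 0.71 and 0.76 (-2.82 ± 0.08). The inhibitor genes split as well, Cdkn1c being lower by a difference of -3.95, Cdkn1a of -1.50 and Cdkn2c of -1.60, and Cdkn2a higher by 2.74. Mycn was higher (2.04; 3.67 in the sample channel) and Myc lower (-1.56).

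MHC class I presentation was measured by 14 genes with a median of -0.72 (-0.41 with normexp and loess, -0.11 with loess on unsubtracted signals), of which 9 fell in MAPC and 1 rose (2 without the second MAPC array). B2m, the light chain of class I molecules, gave -3.24 and -3.17 in MAPC and -1.67 on the 1 usable neurosphere array (-1.54 ± 0.10, adjusted p = 0.00139). The higher one was Calr, calreticulin (1.80). The share called was 71.4%, and that of the imprinted genes below 73.3%, against 52.1% of all named genes. The 15 imprinted genes had a median of -1.14 (-0.70 with no filter on dim probes, -0.39 with loess on unsubtracted signals), 8 falling and 3 rising: Ndn (-4.11; -5.86 in the sample channel), Peg12 (-4.00) and Nnat (-3.54; -6.78 in the sample channel) were lower, and the placental growth gene Phlda2 gave 3.14 and 2.99 in MAPC and 0.00 and 0.02 in neurospheres (3.05 ± 0.09; 5.42 in the sample channel).

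**Figure D5:**
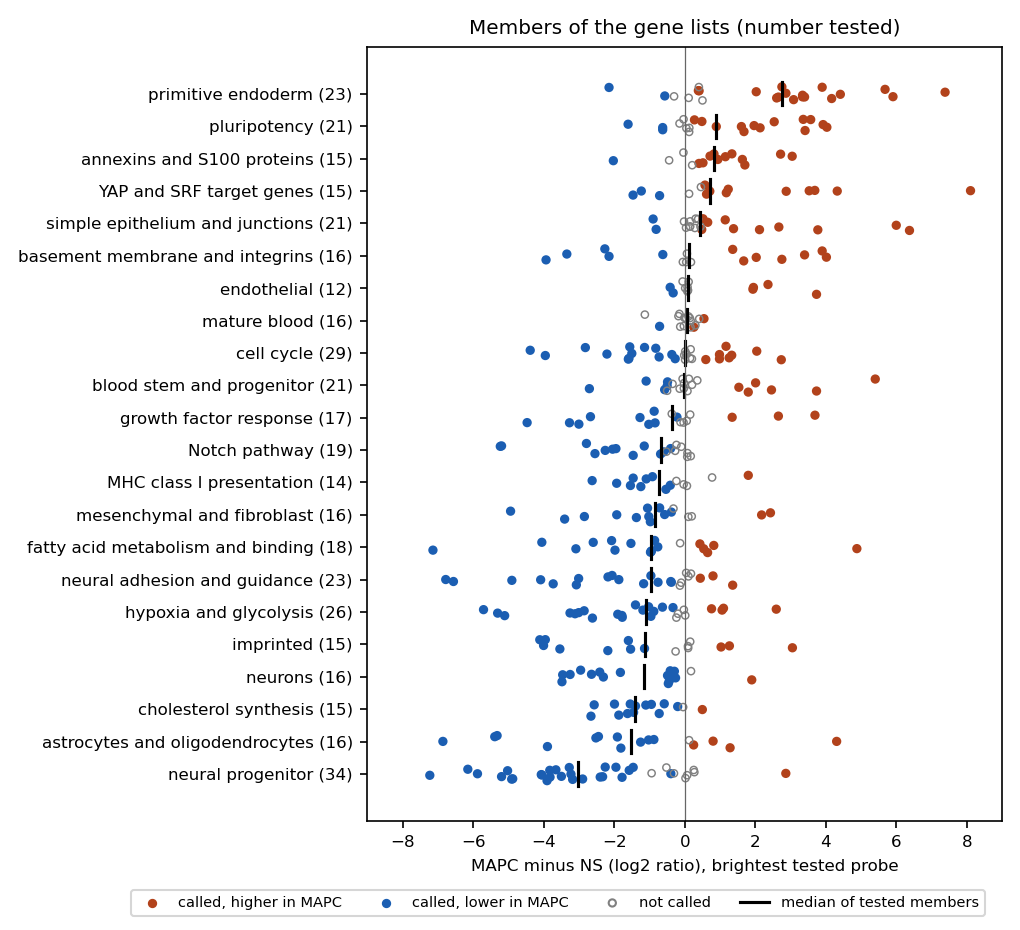
Difference between MAPC and NS in log2 ratio (horizontal axis) for each tested gene of the gene lists, 1 row per list with its median marked and called genes coloured by direction. Neural progenitor genes lie mostly to the left (median -3.04) and primitive endoderm genes mostly to the right (median 2.76), while the mature blood genes cluster about 0.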

How the data were processed

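Two-colour Agilent arrays of 4 samples (MAPC and neurospheres, 2 each) were analysed with the 2 ESC arrays in 1 fit. Per the file headers the authors read the array images with Agilent Feature Extraction A.7.5.1, and the deposited values used are the processed signal intensities of each spot, already background-subtracted and dye-normalized. The authors' deposited value table holds log10 values per spot, with medians of 2.957 and 2.951 on the MAPC arrays, 2.968 and 2.971 on the NS arrays and 2.973 and 2.97 on the ESC arrays. They correlated with the log10 sample signal at 0.988 to 0.994, while their differences between arrays followed the log10 ratio (0.960 to 0.984, sample over reference). How that table sets a spot's level is not stated per the labels, so it served only for differences between groups, as an alternative. The sample carried Cy3 on every array, without dye swap, so a dye effect of a probe stays in its ratios and cancels in a difference only where it is equal in both groups.

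Of 41034 non-control spots, outlier spots in either channel were dropped and repeated spots averaged, giving 41006 probes. A probe was tested if both MAPC arrays or both NS arrays marked its Cy3 signal as well above background. The log2 ratio of sample over reference was fitted with limma 3.58.1 (R 4.3.3) on group means, with 3 residual degrees of freedom, and p-values were adjusted by Benjamini-Hochberg over all probes tested (threshold 0.05, two-sided). The p-values measure only the spread between these samples. Names came from RefSeq accessions through a table of assembly GRCm38.p6 or, failing that, symbols: 15381 probes were named (12323 genes) and 25625 were not. A gene is given by its brightest probe. The limma fit was tested on simulated data with changes set in advance.

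The lists hold 527 genes, 403 of them tested; some are counted but not reported here by name. Members and lists were chosen with earlier results of these data known, so no list count is independent support. The genes named were drawn from the 12 bright genes highest and lowest with all probes 1 way, up to 4 leading and the best known genes of each list, the 6 leading genes each way with 3 or more agreeing probes, the 6 with the widest opposed probes, and the markers. Not every gene of these sets is described. Among those with 3 or more agreeing probes, Nlrp4c, Slc30a7, Tcirg1 and Eif1a (higher in MAPC) and Sybu and Hmgb3 (lower) were left out above. Replicate numbers coincide with the day of Feature Extraction, an image-analysis day. Deviations of same-numbered arrays correlated at 0.0823 for MAPC and NS, 0.133 for MAPC and ESC and 0.134 for ESC and NS. Numbers were not taken to pair samples.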

Additional observations from a re-analysis of the deposited data

How the results depend on the processing

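Of the 16492 probes called between MAPC and neurospheres, the count stayed within 1.5 times under every setting tried, from 11655 in the sample channel alone to 17422 with normexp background correction and loess; leaving out 1 array gave 12364 to 16091. With a replicate block, which is also the Feature Extraction day, 16677 probes were called. The 5841 probes at least 2-fold apart became 2404 with loess on signals without background subtraction, which changes 2 choices at once, and 5741 to 5986 without 1 array. The 2549 bright genes called became 4384 with brightness above the median, and 1998 to 2489 without 1 array. The 855 genes whose probes agreed became 506 in the sample channel alone, and 585 to 823 without 1 array. Restricting to probes with the reference under 2-fold apart, a choice made after seeing the data, left 16113 probes, 2514 bright genes and 829 agreeing genes, and brightness by the lowest reference array, chosen likewise, left 2398 bright genes called.

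In the sample channel alone the sign turned for Lama1 (7.02), Spry2 (1.00), Spi1 (0.75), Ttr (0.21), Syt1 (0.19), Hey1 (0.0807), Tubb2b (0.0443), Ebp (-0.0286), Eras (-0.42) and Efnb3 (-0.76). With the mean of a gene's probes it turned for Lama1 (0.30), Pramel13 (1.91) and Tango6 (-1.27). The cause was not tested. Of the 433 genes listed or named, between 0 and 44 lost their call under a setting with a test, the most in the sample channel alone. Deposited signals carry no spread of their own, saturated or dim spots give only bounds, and 2 arrays a group of 1 MAPC clone say nothing of other clones.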
